A study of Mus musculus with 48 samples.

Results

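The genes described here are *Hba-a1* and *Hba-a2*, which encode the α chain of adult haemoglobin, *Hbb-bs* and *Hbb-bt*, which encode its β chain, and *Alas2*, the red cell form of the first enzyme of haem synthesis. They were chosen by name, as 5 of the 55385 genes counted in the substantia nigra (SN) of 48 male C57BL/6J mice. Each mouse received an injection into the right striatum, on that side alone, of either mouse α-synuclein preformed fibrils (PFF), which seed aggregates of the protein or of α-synuclein monomer, the control. The mice breathed 21% or 11% O2, which gave 4 groups of 12 mice: monomer at 21% O2, PFF at 21% O2, monomer at 11% O2 and PFF at 11% O2. The time at 11% O2 is described in conflicting ways, as 12 weeks from shortly after injection in the study's methods and as 6 weeks that followed 6 weeks at 21% O2 in the series description. By the labelled dates, tissue was taken 90 to 98 days after injection, from mice aged 30.1 to 31.3 weeks. The labels name no genetic change in any group, and no step that washed blood from the vessels was described for this tissue.

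Adult haemoglobin is a tetramer of α and β chains, each holding a haem, and it fills the red cell. Developing red cells in the marrow transcribe the globin genes and *Alas2* at very high levels, and young red cells in the circulation still carry part of that RNA after losing the nucleus. A lasting fall in inspired oxygen raises erythropoietin from the kidney, which increases red cell output and haematocrit. Globin transcripts have also been described in neurons, including dopaminergic neurons of the SN. In bulk tissue, more red cells, younger red cells with more RNA in each, and transcription by resident cells cannot be told apart.

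*Hba-a1* lies at chr11:32283511-32284465 and *Hba-a2* at chr11:32296489-32297298, both on the plus strand. *Hbb-bs* lies at chr7:103826534-103828096 and *Hbb-bt* at chr7:103812524-103813996, both on the minus strand. *Alas2* lies at chrX:150547375-150570638 on the plus strand. These positions are those of GENCODE vM21 on GRCm38. Each globin gene has 3 exons, and the *Alas2* transcript has 11. The coding parts of *Hba-a1* and *Hba-a2* were identical at 425 of 426 bases, and those of *Hbb-bs* and *Hbb-bt* at 440 of 441. The windows that hold the differing base are shown because, within the coding part, that base alone separates the copies. The transcripts also differ outside the coding part, which is not shown. They have 699 bases in *Hba-a1* and 554 in *Hba-a2*, and 628 in *Hbb-bs* and 703 in *Hbb-bt*. Coding bases 351 to 410 of the α genes and 382 to 441 of the β genes follow, from GENCODE transcripts on GRCm38, with the differing base in capitals.
Hba-a1: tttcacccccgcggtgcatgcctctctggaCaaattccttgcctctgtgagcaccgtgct
Hba-a2: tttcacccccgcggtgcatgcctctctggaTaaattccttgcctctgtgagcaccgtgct
Hbb-bs: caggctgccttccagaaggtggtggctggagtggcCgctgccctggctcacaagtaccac
Hbb-bt: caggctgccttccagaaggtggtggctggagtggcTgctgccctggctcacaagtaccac
Of the stretches of 150 bases, the read length, in the *Hba-a1* transcript, 48.4% occurred unchanged in that of *Hba-a2*. The share was 58.7% for *Hbb-bs* in *Hbb-bt*. The authors counted a read with several alignments once, at its primary alignment, so the split of reads between copies is uncertain for the β genes as well as the α genes. The α genes are therefore given as their sum, and the β genes are given apart and, where it matters, summed.

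The 120 bases before the start of each gene are shown next (RefSeq, GRCm38.p6, strand of the gene). Whether they bear on how the members moved together from mouse to mouse, described further on, was not tested. Capitals mark the letters CCAAT or CACCC or GATAA or TATAA, or their reverse complements, searched on both strands. They occur in the CCAAT box, the CACCC box, the GATA site and the TATA box that red cell promoters often carry. The CACCC matches before *Alas2* adjoin each other, and the first 2 CCAAT matches before *Hbb-bt* also adjoin. The stretches are chr11:32296372-32296491 for *Hba-a2*, chr7:103827929-103828048 for *Hbb-bs*, chr7:103813924-103814043 for *Hbb-bt* and chrX:150547297-150547416 for *Alas2*.
Hba-a2: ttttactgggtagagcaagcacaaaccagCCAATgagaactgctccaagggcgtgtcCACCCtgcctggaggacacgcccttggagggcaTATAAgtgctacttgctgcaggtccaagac
Hbb-bs: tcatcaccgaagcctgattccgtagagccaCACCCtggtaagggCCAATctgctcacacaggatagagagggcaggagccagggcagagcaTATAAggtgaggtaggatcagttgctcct
Hbb-bt: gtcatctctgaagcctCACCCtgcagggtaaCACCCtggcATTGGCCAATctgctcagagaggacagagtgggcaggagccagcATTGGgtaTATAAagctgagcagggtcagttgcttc
Alas2: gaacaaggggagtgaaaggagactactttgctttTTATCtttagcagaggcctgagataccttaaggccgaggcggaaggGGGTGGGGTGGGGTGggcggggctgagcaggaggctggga
The stretch before *Hba-a1* held the same letters moved by 3 bases, with 117 in common, and is not shown. All 4 globin genes held CCAAT and also CACCC and TATAA in this window, with TATAA starting 27 to 30 bases before the start. *Alas2* held GATAA and 3 copies of CACCC on the reverse strand, with no CCAAT or TATAA. Of 27025 RefSeq promoter windows of this length, 22.1% held CCAAT, 31.3% CACCC, 10.7% GATAA and 12.4% TATAA. A match describes letters only. GENCODE starts these genes further upstream than RefSeq does. By the GENCODE positions above, the whole stretch shown for *Hbb-bs* lies within the gene, as does that of *Hba-a1*. The stretches of *Hba-a2*, *Hbb-bt* and *Alas2* lie partly within theirs.

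The 48 libraries held 3134594 to 17120921 counts on genes, and all but the shallowest, PFF mouse 2 at 11% O2, held at least 12902996. The authors left out 6 mice, including that one, and corrected the counts of the other 42 for batch, the date of harvest. Those 42 were 11 monomer and 12 PFF mice at 21% O2 and 9 monomer and 10 PFF mice at 11% O2. Batch 1 held all 4 groups, batch 2 no monomer mice at 11% O2, and batch 3 no monomer mice at 21% O2. Outside batch 1, harvest date and O2 therefore cannot be told apart among monomer mice. The 5 genes together took 0.0111% to 0.743% of the counts of a mouse, with a median of 0.0279%, and *Alas2* had 14 to 365 counts. Duplicate reads had been removed, which lowers the counts of short abundant transcripts most.

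Levels are given first in TPM, counts scaled by transcript length and library total, which can be compared between genes, before batch correction and in all 48 mice. The summed α genes were the highest, then *Hbb-bs*, then *Hbb-bt* and then *Alas2*. The summed α genes had 288 TPM in the lowest, 568 in the median and 990 in the highest monomer mouse at 21% O2, and 363, 517 and 1257 TPM in PFF mice at 21% O2. At 11% O2 the lowest, median and highest were 512, 874 and 3219 TPM in monomer mice, and in PFF mice 555, 999 and 17386 TPM. Within each injection the groups overlapped: 4 of 12 monomer mice at 11% O2 lay above every monomer mouse at 21% O2, and 11 of 12 above the median of that group. Among PFF mice at 11% O2, 4 of 12 lay above every PFF mouse at 21% O2 and 12 of 12 above its median.

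*Hbb-bs* encodes most of the β chain RNA here. Its lowest, median and highest TPM were 228, 413 and 704 in monomer mice, and in PFF mice 259, 389 and 782 at 21% O2. At 11% O2 they were 371, 541 and 1847 in monomer mice, and in PFF mice 416, 668 and 9807. At 11% O2, 11 of 12 monomer and 12 of 12 PFF mice lay above the median of the same injection at 21% O2.

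*Hbb-bt*, the minor adult β gene here, had 32.7, 77.6 and 124 TPM in monomer mice, and in PFF mice 41.5, 68.5 and 156 TPM at 21% O2. At 11% O2 it had 66.0, 97.2 and 499.8 TPM in monomer mice, and in PFF mice 61.4, 116 and 2373 TPM. Groups overlapped again, with 3 of 12 monomer and 5 of 12 PFF mice at 11% O2 above every mouse of the same injection at 21% O2.

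*Alas2*, which commits glycine and succinyl-CoA to haem in red cells, had 1.61, 4.87 and 6.92 TPM in monomer mice, and in PFF mice 2.47, 4.68 and 12.2 TPM at 21% O2. At 11% O2 it had 3.57, 7.36 and 35.6 TPM in monomer mice, and in PFF mice 4.20, 8.17 and 121 TPM. For *Alas2*, 9 of 12 monomer mice at 11% O2 lay above every monomer mouse at 21% O2, more than for any globin gene, and 4 of 12 PFF mice at 11% O2 lay above every PFF mouse at 21% O2.

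**Figure D1:**
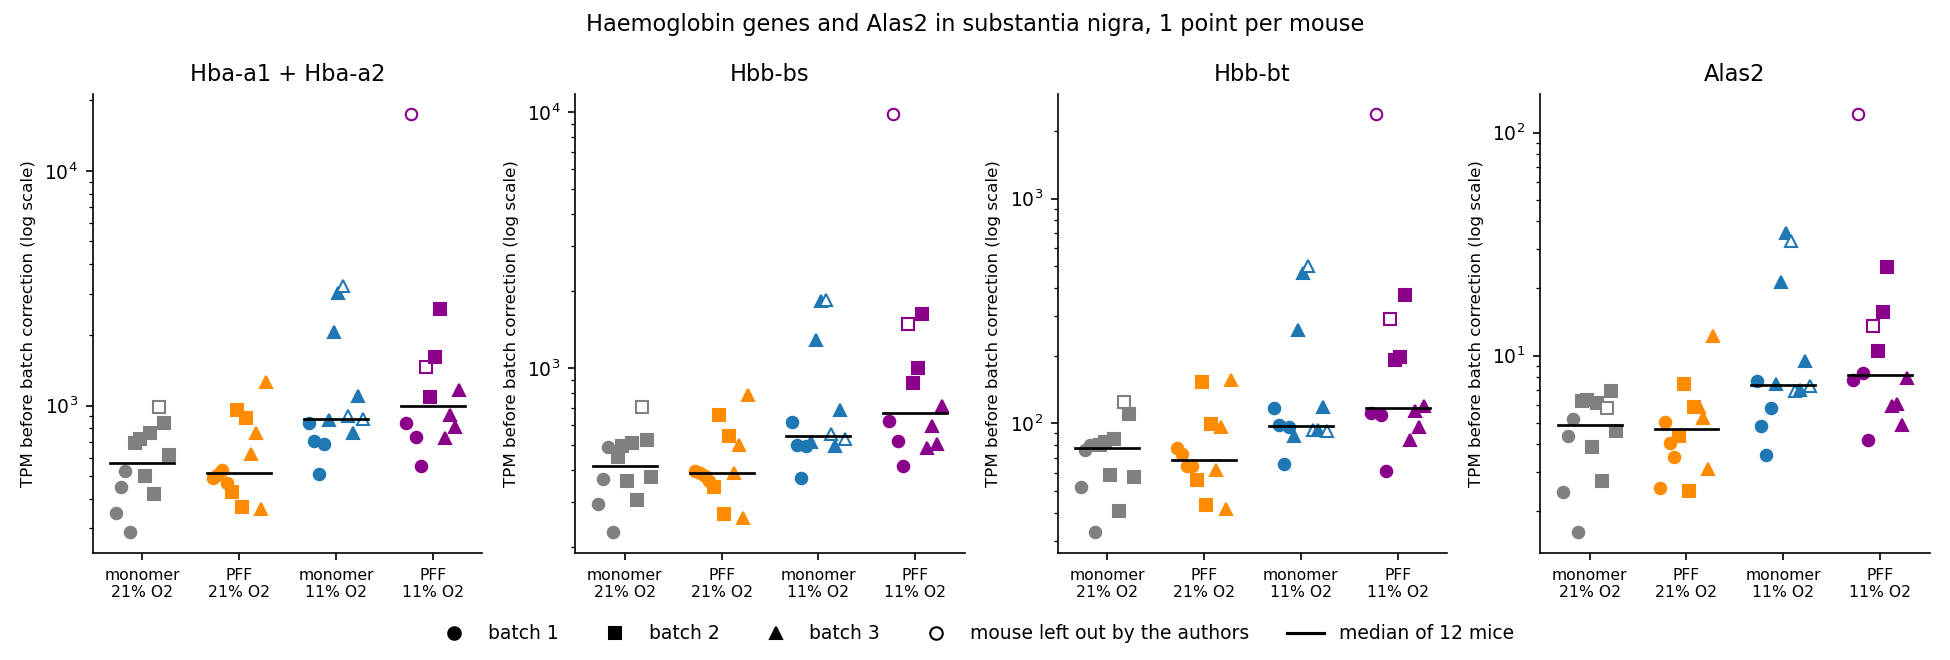
TPM before batch correction (log scale) of the summed α genes, Hbb-bs, Hbb-bt and Alas2 in each of 48 mice by group. Symbols give the harvest batch, open symbols the 6 mice the authors left out, and bars the median of 12 mice. The medians at 11% O2 lie above those at 21% O2 in every panel while the groups overlap, and 1 left-out PFF mouse at 11% O2 reaches 17386 TPM for the summed α genes.

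Much of the spread lay between mice of the same group. In the 42 mice after correction, the standard deviation of log2 CPM (counts scaled to the library total) within groups was 0.68 for the summed α genes, larger than for 97.9% of the 14838 genes tested. It was 0.64 for *Hbb-bs*, 0.87 for *Hbb-bt* and 0.91 for *Alas2*, where the median gene had 0.14. After correction the summed α genes ran from 280 to 746 TPM in monomer mice (median 579, n = 11) and from 211.2 to 1372 TPM in PFF mice (median 741, n = 12) at 21% O2. At 11% O2 they ran from 592 to 3263 TPM in monomer mice (median 1142, n = 9) and from 599 to 2794 TPM in PFF mice (median 1034, n = 10). On this scale 7 of 9 monomer mice at 11% O2 lay above every monomer mouse at 21% O2, but 2 of 10 PFF mice at 11% O2 lay above every PFF mouse at 21% O2.

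The comparison of 11% with 21% O2 in monomer mice asks what breathing less oxygen did in the absence of fibrils. All 4 features rose. The fitted level of the summed α genes was 2.49-fold higher at 11% O2, that of *Hbb-bs* 2.28-fold, that of *Hbb-bt* 2.93-fold and that of *Alas2* 3.20-fold. On the log2 scale these were increases of 1.31 (SE 0.28, adjusted p = 0.0014), 1.19 (SE 0.27, adjusted p = 0.0021), 1.55 (SE 0.35, adjusted p = 0.0026) and 1.68 (SE 0.38, adjusted p = 0.0024). The test was edgeR's quasi-likelihood test on the batch-corrected counts of 42 mice, with Benjamini-Hochberg adjustment over all 14838 genes. Its p-values measure the spread between mice that remained after the authors' correction, which kept O2 and injection as covariates. The uncertainty of that correction does not enter them, so they may be too small. A fit with a batch term on uncorrected counts is given further on. Calls needed an adjusted p under 0.05 together with an absolute log2 fold change above 0.25. In this comparison 7.22% of all genes were called, and 4.67% were called higher, so the 4 features stood among a sizeable minority of genes. The median log2 fold change of all genes was near 0 in each comparison.

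In PFF mice the same comparison asks what less oxygen did after fibrils. The estimates were positive and none was called: 0.79 on the log2 scale for the summed α genes (SE 0.27, edgeR adjusted p = 0.209), 0.76 for *Hbb-bs* (SE 0.25, adjusted p = 0.189), 0.82 for *Hbb-bt* (SE 0.33, adjusted p = 0.346) and 0.88 for *Alas2* (SE 0.36, adjusted p = 0.357). All 4 were at an unadjusted p under 0.05, and DESeq2 called none of them either. The 95% interval for the summed α genes ran from 0.26 to 1.32, so that a change of the size fitted in monomer mice lies at its upper end. Here 0.58% of all genes were called. The difference between the effects of 11% O2 in PFF and in monomer mice, tested directly as an interaction, was −0.52 for the summed α genes (SE 0.39), −0.43 for *Hbb-bs* (SE 0.37), −0.73 for *Hbb-bt* (SE 0.49) and −0.79 for *Alas2* (SE 0.53). The adjusted p ran from 0.509 to 0.627, against 2.14% of all genes called, so the members were not shown to respond differently in PFF and monomer mice. The direction depended on the values used. After correction, in 42 mice, the α median at 11% O2 over that at 21% O2 was 1.97 in monomer and 1.40 in PFF mice. Before correction, in 48 mice, it was 1.54 and 1.93. There it was also larger in PFF mice for *Hbb-bs* (1.31 and 1.72), *Hbb-bt* (1.25 and 1.70) and *Alas2* (1.51 and 1.74).

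Fibrils themselves gave no called change of the members. At 21% O2, PFF minus monomer was 0.29 on the log2 scale for the summed α genes (SE 0.27, edgeR adjusted p = 0.558), with an interval from −0.23 to 0.81. It was 0.24 for *Hbb-bs*, 0.43 for *Hbb-bt* and 0.32 for *Alas2*, and 3.71% of all genes were called. At 11% O2 it was −0.23 for the summed α genes (SE 0.29, edgeR adjusted p = 1.00), with an interval from −0.80 to 0.33, −0.18 for *Hbb-bs*, −0.30 for *Hbb-bt* and −0.47 for *Alas2*. In that comparison edgeR called 0% of all genes, with 581 at an unadjusted p under 0.05, and DESeq2 called 1. The direction at 21% O2 depended on the values used. After correction, in 42 mice, the PFF median over the monomer median was 1.28, 1.24, 1.29 and 1.16 (summed α genes, *Hbb-bs*, *Hbb-bt*, *Alas2*). Before correction, in 48 mice, these ratios were 0.909, 0.943, 0.882 and 0.961. For the summed α genes it was then 1.25 in batch 1 and 0.926 in batch 2.

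**Figure D2:**
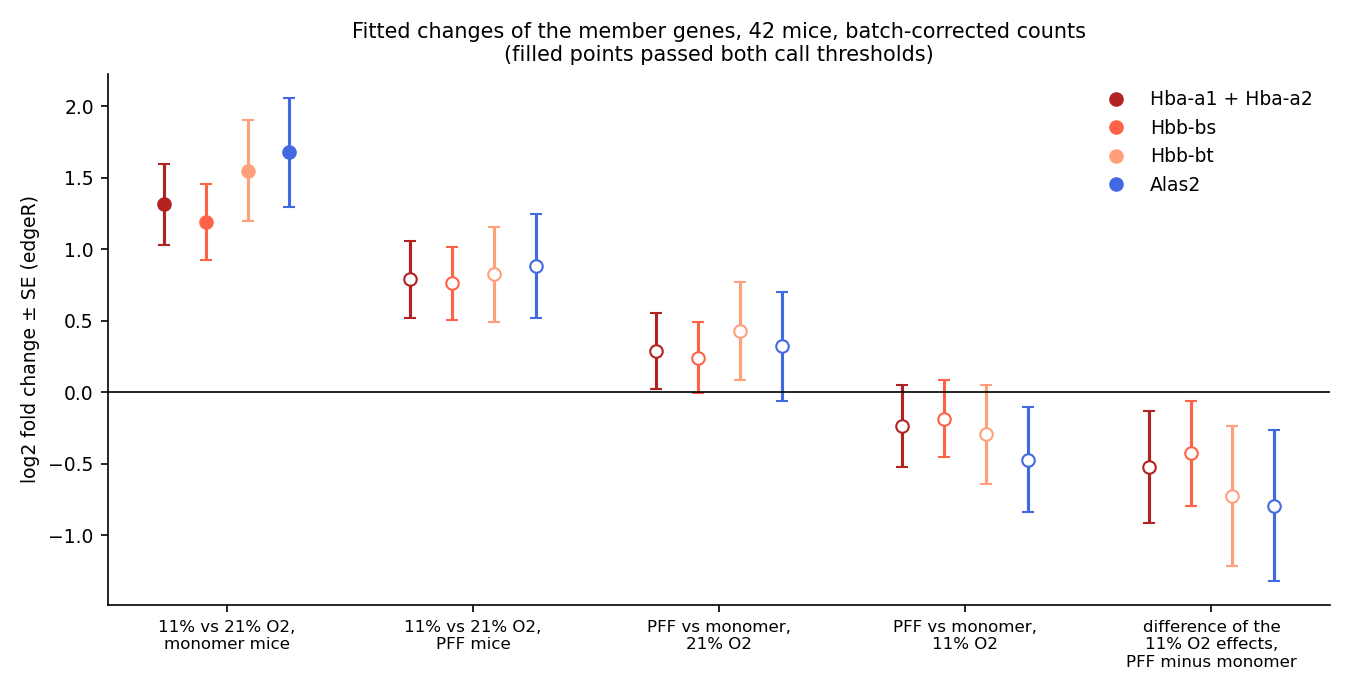
Log2 fold change with its SE (edgeR, 42 mice, batch-corrected counts) of each member in 5 comparisons. Filled points passed both call thresholds. Only the 4 points for 11% against 21% O2 in monomer mice, from 1.19 to 1.68, are filled.

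The estimates for 11% O2 were unequal between batches, a difference that was not itself tested. In batch 1, where both monomer groups were collected together, counts before correction gave 0.77 on the log2 scale for the summed α genes (edgeR adjusted p = 0.0372, called, where 1.98% of all genes were). There the estimates were 0.51 for *Hbb-bs*, 0.65 for *Hbb-bt* and 0.68 for *Alas2*, none of them called. The α values of that batch were 288, 347, 450 and 524 TPM in monomer mice at 21% O2 and 512, 683, 704 and 840 TPM at 11% O2, so that 3 of 4 lay above every mouse at 21% O2. In PFF mice, the summed α genes gave 0.50 in batch 1, 1.44 in batch 2 and 0.25 in batch 3, with *Alas2* at 0.83, 1.79 and −0.12. None of these was called, in fits where 0.0406%, 0.0472% and 0.0136% of all genes were, so a missing call there says little about the members. For the summed α genes, 4, 4 and 0 of 4 PFF mice at 11% O2 lay above every PFF mouse at 21% O2 of the batch. With a batch term on the uncorrected counts of 42 mice, the monomer estimates were 1.18, 1.03, 1.38 and 1.45 for the summed α genes, *Hbb-bs*, *Hbb-bt* and *Alas2*, all called where 4.56% of all genes were.

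A few mice carried a large part of the estimates. The highest of the 42 were monomer mice 6 and 7 at 11% O2, with 2066 and 3009 TPM of the summed α genes before correction, and PFF mouse 8 at 11% O2, with 2586 TPM. Without these 3 the monomer estimates were 0.82 for the summed α genes, 0.70 for *Hbb-bs* and 0.90 for *Hbb-bt*, all called, and 0.94 for *Alas2*, which was no longer called (edgeR adjusted p = 0.0545). There 6.57% of all genes were called. This setting was chosen after the values were seen and removes high mice at 11% O2, so it lowers the estimates by construction.

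The mice the authors left out mattered more in PFF mice. PFF mouse 2 at 11% O2 had 17386 TPM of the summed α genes, 9807 of *Hbb-bs*, 2373 of *Hbb-bt* and 121 of *Alas2*, the highest of all 48 mice for each. Its library was the shallowest, and its 9 neutrophil markers summed to 741 TPM, against at most 15.4 TPM in any mouse of the other 3 groups. That comparison does not cover the other PFF mice at 11% O2. In the fit of all 48 mice on uncorrected counts, which kept batch as a term, the estimates in PFF mice were 2.11, 1.89, 2.00 and 1.87 for the summed α genes, *Hbb-bs*, *Hbb-bt* and *Alas2*, all called where 0.725% of all genes were. Those in monomer mice were then 1.12, 1.02, 1.38 and 1.37, and none was called. Without that mouse, in 47 mice (also a setting chosen after the values were seen), the monomer estimates were 1.20, 1.07, 1.45 and 1.48, all called, and the PFF estimates 0.73, 0.76, 0.81 and 0.87, none called. The part that its blood cell markers had in these values was not tested.

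**Figure D3:**
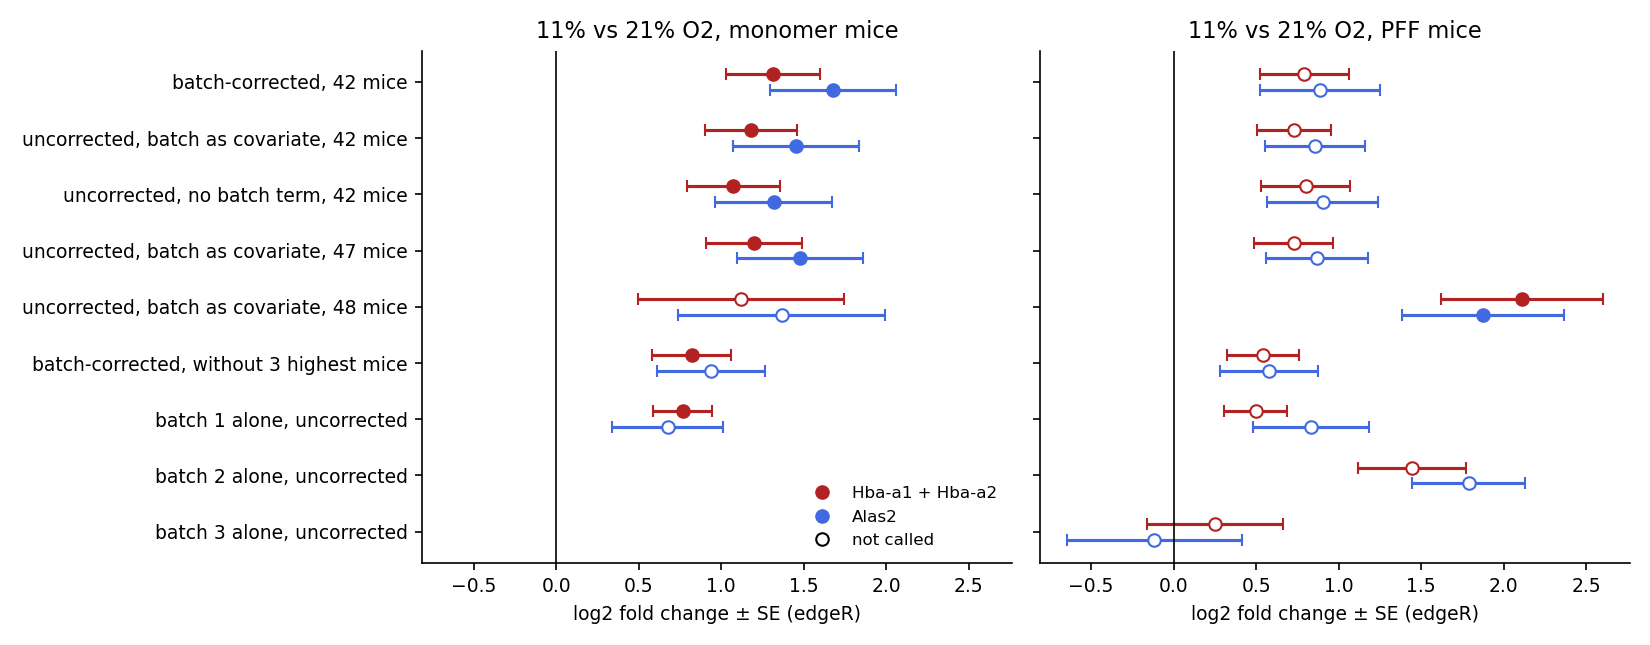
Log2 fold change with its SE (edgeR) for 11% against 21% O2 of the summed α genes and Alas2 in monomer and PFF mice under 9 settings. Filled points were called. The monomer estimates stay between 0.68 and 1.68, and the PFF estimates run from −0.12 in batch 3 to 2.11 with all 48 mice.

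Summing or separating copies made little difference. Fitted apart, *Hba-a1* rose by 1.31 and *Hba-a2* by 1.32 on the log2 scale in monomer mice, and the estimates in PFF mice were 0.79 for each. The summed β genes rose by 1.24 in monomer mice (edgeR adjusted p = 0.0021) and had an estimate of 0.77 in PFF mice. *Hba-a1* made up 52.8% to 59.7% of the α TPM in the 48 mice, and *Hbb-bt* 11.8% to 21.3% of the β TPM, with a median of 15.2%. The ratio of summed α to summed β TPM had a median of 1.23 and ran from 0.823, in PFF mouse 5 at 11% O2, to 1.44. Its medians were 1.15, 1.23 and 1.34 in batches 1, 2 and 3.

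The members followed each other closely from mouse to mouse. Across the 42 mice, with each group's mean removed, log2 CPM of the summed α genes correlated with *Hbb-bs* at Pearson's r = 0.985 and Spearman's rho = 0.972, with *Hbb-bt* at 0.961 and 0.939, and with *Alas2* at 0.949 and 0.890. Each had a permutation p of 1e-05, the smallest that 100000 permutations within group and batch can give, and the same after adjustment over 36 p-values. Without the 2 mice farthest from the median, PFF mouse 7 at 21% O2 and monomer mouse 7 at 11% O2, r was 0.980, 0.949 and 0.933. Within single batches, on uncorrected counts, r ran from 0.898 to 0.997. A unit of log2 in the α genes went with 0.92 in *Hbb-bs*, 1.24 in *Hbb-bt* and 1.27 in *Alas2*. The points share library and depth.

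**Figure D4:**
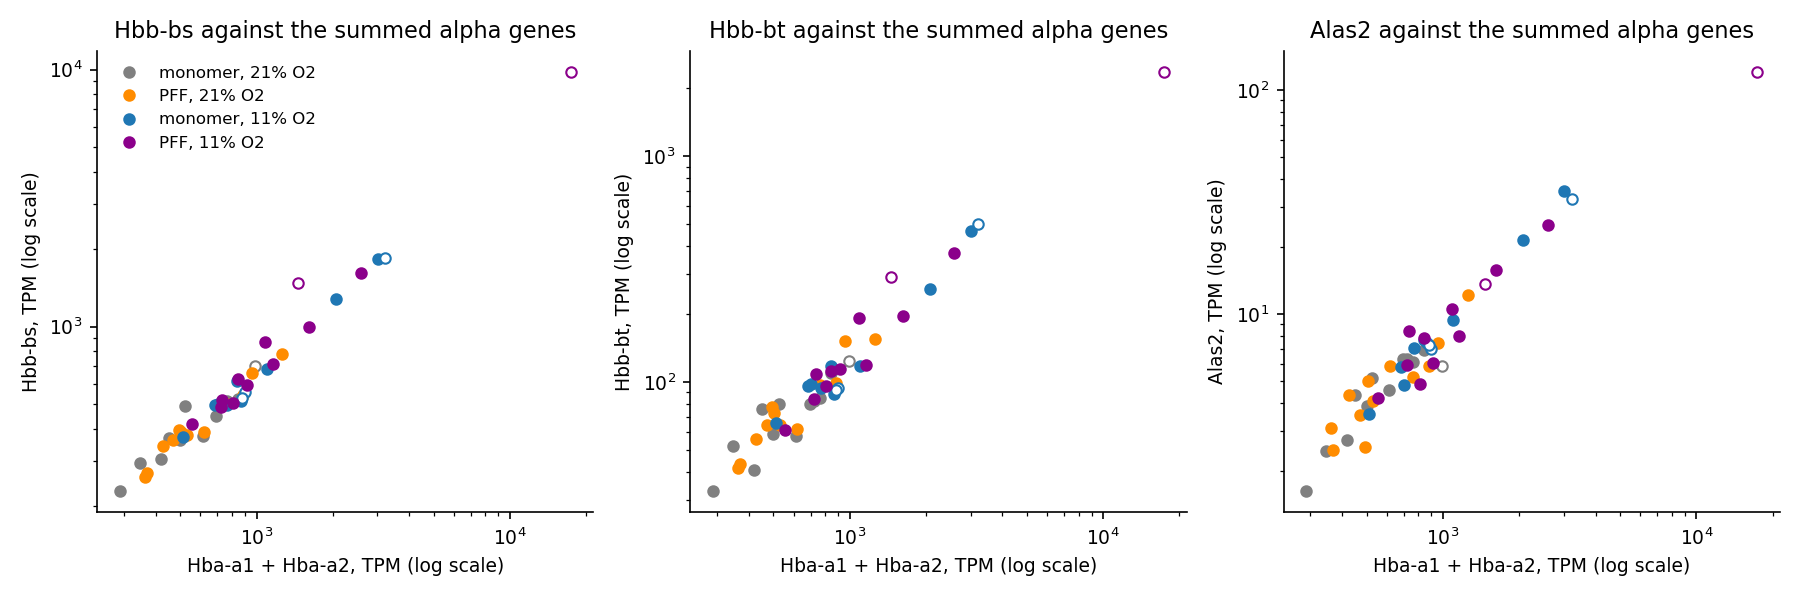
TPM before correction (log scales) of Hbb-bs, Hbb-bt and Alas2 against the summed α genes, 1 point per mouse in 48 mice, coloured by group, with the 6 left-out mice open. The points lie along a single band in each panel, and the left-out PFF mouse at 17386 TPM continues it.

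Of the other tested genes, the one most like the summed α genes was *Ube2l6*, an interferon-induced ubiquitin-conjugating enzyme also abundant in maturing red cells, with r = 0.828 over 42 mice. The next were *Gpx8* (0.695), *Ccl9* (0.666), *Lyz2* (0.652), *Ifitm3* (0.649), *Car13* (0.649), *Ms4a6d* (0.648), *Nupr1* (0.646), *Crabp2* (0.645) and *B2m* (0.638). Over all tested genes the median r was 0.01, and the 5th and 95th percentiles were −0.44 and 0.43. *Ube2l6* rose by 0.58 on the log2 scale at 11% O2 in monomer mice (edgeR adjusted p = 0.0034) and had an estimate of 0.49 in PFF mice (adjusted p = 0.0508). *Ccl9*, a chemokine, rose by 0.71 in monomer mice (edgeR adjusted p = 0.0013). The other 8 were not called in either O2 comparison.

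Counts of called genes in the lists that follow stand beside 7.22% of all genes called in monomer and 0.58% in PFF mice. In lists this small, 0 called is near those shares and says little about the list. Haem synthesis genes other than *Alas2* come first. Of 14, 0 were called in either O2 comparison by edgeR or DESeq2, and 2 in monomer and 0 in PFF mice were at an unadjusted p under 0.05, with median log2 fold changes of 0.02 in monomer and −0.03 in PFF mice. *Ppox*, the oxidase before ferrochelatase, had 0.08 in monomer mice (edgeR adjusted p = 0.291). Of 9 tested genes of haem breakdown, export and scavenging 0 were called by edgeR or DESeq2 and 1 in each comparison was at an unadjusted p under 0.05, with medians of −0.04 and −0.09. There *Slc48a1*, a haem transporter, had 0.16 in monomer mice (adjusted p = 0.0423), and *Flvcr1*, a haem exporter, −0.10 (adjusted p = 0.248). Of 4 other globins tested 0 were called by edgeR or DESeq2 and 0 were at an unadjusted p under 0.05, with medians of −0.02 and 0.02, *Mb* (myoglobin) and the α-like *Hbq1a* among them. The embryonic *Hbb-bh1* was listed at 0 in all 48 mice, *Hba-x* in 46 and *Hbb-y* in 33, named here after their values were seen.

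Among 18 tested genes of other red cell functions, 2 rose and 1 fell in monomer mice at 11% O2, and 0 were called in PFF mice by edgeR, where 3 were at an unadjusted p under 0.05 and DESeq2 called 1. The medians were 0.10 and 0.03. *Ube2l6* rose as given above, *Cd24a*, a surface glycoprotein of red cells and neurons, rose by 0.27 (adjusted p = 0.0486), and *Rhd*, a blood group protein, fell by 0.45 (adjusted p = 0.0372). The most abundant, *Car2* (carbonic anhydrase) and *Bnip3l* (mitochondrial clearance), had 0.09 and 0.05, and brain cells express both. Single genes of these lists lay far apart in level. *Slc4a1* (band 3) had a median of 0.109 TPM, while *Epb42* and *Hemgn* were listed at 0 in 28 and 38 of 48 mice. None of these 3 passed the filter on low counts, and they are named as defining red cell markers after their values were seen. *Gata1*, the master factor of red cell development, was at 0 in 41 of 48. Other genes of the red cell membrane skeleton on the same list were well above 0, with median TPM of 68.9 for *Dmtn*, 45.4 for *Ank1*, 42.2 for *Sptb* and 20.5 for *Epb41*, as were the transcription factors *Lmo2* (38.1) and *Tal1* (34.4), all named after their values were seen. Their r with the summed α genes across the 42 mice, group means removed, was −0.610 for *Dmtn*, −0.465 for *Ank1* and −0.487 for *Sptb*. It was 0.255 for *Epb41*, 0.279 for *Lmo2* and 0.193 for *Tal1*. Which cells these transcripts came from was not tested. Of 10 tested red cell transcription factors and erythropoietin signalling genes, *Stat5a*, which acts after the erythropoietin receptor and many others, rose by 0.49 in monomer mice (edgeR adjusted p = 0.00029). *Zfpm1*, a GATA cofactor, rose by 0.31 in PFF mice (edgeR adjusted p = 0.0432). At 21% O2 *Stat5a* was also higher in PFF than in monomer mice, by 0.32 (edgeR adjusted p = 0.0193).

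Markers of brain endothelium, the lining of the vessels that hold the blood, moved in the same comparison. Of 10, 9 rose at 11% O2 in monomer mice and 2 in PFF mice, with medians of 0.55 and 0.33 on the log2 scale. *Cldn5*, a tight junction protein, rose by 0.74 in monomer mice (edgeR adjusted p = 6.6e-06) and 0.47 in PFF mice (adjusted p = 0.0114). *Flt1*, a receptor for vascular growth factor, rose by 0.52 (adjusted p = 0.0013) and 0.53 (adjusted p = 0.005). *Pecam1* rose by 0.65 and *Emcn* by 0.59 in monomer mice. The 10 markers summed to 238 to 582 TPM in monomer and 298 to 524 TPM in PFF mice at 21% O2, and to 297 to 955 and 245 to 1031 TPM at 11% O2, with 0 of the 10 at 0 in every mouse. Across the 42 mice, with group means removed, r of the 10 markers with the summed α genes ran from 0.187 for *Cldn5* to 0.538, and 6 of 10 lay above the 95th percentile of all tested genes. These points share library and depth. The part of vessel content in the members' change was not tested.

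Markers of other cells were compared in the same way. Of 3 tested platelet markers, *Gp9* rose by 0.83 in monomer mice (edgeR adjusted p = 0.0217), while the others had −0.13 and 0.04 and were not called. In PFF mice 0 of the 3 had a positive estimate. The 6 platelet markers summed to medians of 9.03 to 10.3 TPM over the 4 groups. The neutrophil, lymphocyte and monocyte markers summed to medians of at most 4.58 TPM, and of these 1, *Ccr2*, was tested and not called, with 0.66 on the log2 scale in monomer mice (edgeR adjusted p = 0.291) and −0.44 in PFF mice. Of 5 choroid plexus markers and 8 markers of dopaminergic neurons 0 were called by edgeR or DESeq2 in either O2 comparison, and 0 were at an unadjusted p under 0.05. Over all genes edgeR called 7.22% in monomer and 0.58% in PFF mice, so 0 called in lists this small is near those shares. The choroid plexus genes *Ttr* and *Folr1* had 1.08 (SE 0.74) and 0.39 (SE 0.25) in monomer mice and −1.03 (SE 0.72) and −0.34 (SE 0.24) in PFF mice. The dopaminergic markers, which mark the dissected region, summed to medians of 2041 to 2399 TPM and to 310 to 4684 TPM over single mice. Their r with the summed α genes across the 42 mice, group means removed, ran from −0.430 to −0.265.

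**Figure D5:**
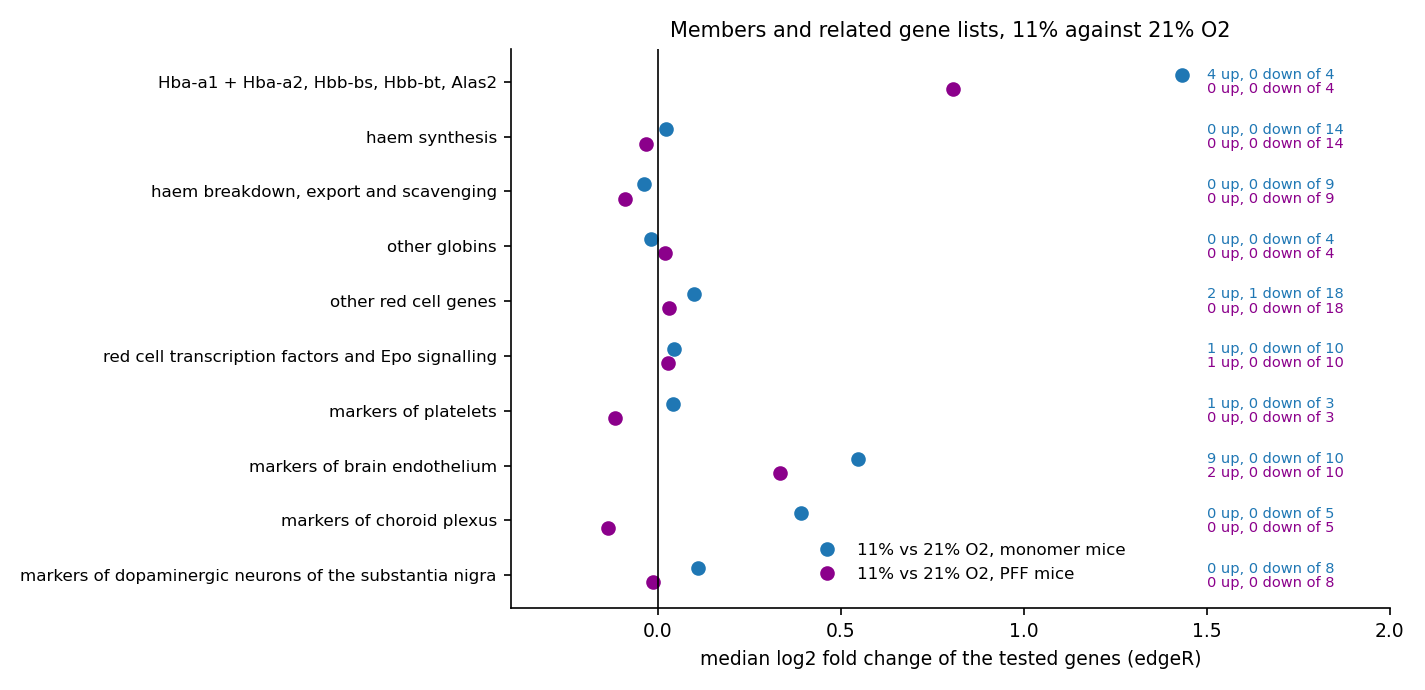
Median log2 fold change (edgeR, 42 mice) for 11% against 21% O2 of the members and of related gene lists, in monomer and PFF mice, with the number of genes called up and down of those tested at the right. The members lie furthest right. Of lists with more than 1 tested gene, brain endothelium comes next, at 0.55 in monomer mice, and the haem synthesis genes lie near 0.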

How the data were processed

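Bulk poly(A) RNA-seq of the SN was analysed for 48 mice. As the study's methods and the submitters' processing notes state, the authors removed ribosomal reads and aligned the rest to mm10 with STAR 2.7.5a and GENCODE vM24, removed duplicates (Picard 2.21.9, GATK 4.1.5.0-9), and counted with featureCounts 2.0.1 at the primary alignment, with no strand option named. The authors deposited counts and TPM for 55385 genes in 48 mice. After principal components analysis they set aside 6 mice. They corrected the remaining 42 with ComBat-seq and deposited the resulting counts and TPM, which cover 19601 protein-coding genes.

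edgeR 4.0.16 under R 4.3.3 was run on the corrected counts (TMM, filterByExpr, quasi-likelihood test, 4 groups fitted together, no batch term), with *Hba-a1* and *Hba-a2* summed before the fit. SE is the absolute log2 fold change over the square root of F. The members and the gene lists were chosen with earlier results of these data known. Named genes are the members, the 10 genes most correlated with the summed α genes, and of each list the called genes (at most 4 by p), or the 2 with the smallest p where none was called, and the 2 most abundant red cell genes. *Hbb-b1*, *Hbb-b2*, *Ahsp* and *Fam46c* matched no symbol. Alternatives were DESeq2 1.42.0, its size factors, all genes kept, calls by adjusted p without a fold threshold, limma 3.58.1 on log2(TPM + 1) or log2(TPM + 0.1), uncorrected counts, single batches, a replicate block and mice left out. The fit was tested on simulated data. The values of some list genes are not reported here.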

Additional observations from a re-analysis of the deposited data

Results flagged for a closer look

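Among the 42 mice after correction, PFF mouse 8 at 11% O2 stood apart from its group by Dixon's test for all members, with 2794 TPM of the summed α genes, 1750 TPM of *Hbb-bs*, 402 TPM of *Hbb-bt* and 27.0 TPM of *Alas2*. The ratio of summed α to summed β TPM stood apart in monomer mouse 5 at 11% O2, at 1.48, and in PFF mouse 6 at 11% O2, at 0.912. The test was run only in the groups at 11% O2, so it does not show whether mice at 21% O2 stood apart. There PFF mouse 12 had 1372 TPM of the summed α genes, against 830 TPM in the next highest mouse of its group. Chance alone marks about 1 in 20 groups in this way where values are normally distributed, which was not tested. The 4 members are also not independent of each other.

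Of the 6 mice that the comparisons left out, 3 had more of the summed α genes, before correction, than every mouse at 21% O2. PFF mouse 2 at 11% O2 had 17386 TPM of the summed α genes, 9807 of *Hbb-bs*, 2373 of *Hbb-bt* and 121 of *Alas2*. Monomer mouse 8 at 11% O2 had 3219, 1847, 499.8 and 32.7 TPM. PFF mouse 5 at 11% O2 had 1460, 1483, 292 and 13.6 TPM, so that *Hbb-bs* exceeded the summed α genes.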

How the results depend on the processing

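Of 444 values recomputed under alternatives other than leaving out a single mouse, 401 kept their direction and side of the threshold, 18 no longer passed or fell in number, 7 newly passed or rose in number, and 18 changed sign. With all 48 mice, 11% against 21% O2 gave 1.12, 1.02, 1.38 and 1.37 in monomer mice (summed α genes, *Hbb-bs*, *Hbb-bt*, *Alas2*, none called) and 2.11, 1.89, 2.00 and 1.87 in PFF mice (all called), PFF against monomer at 11% O2 turned to 1.10, 0.97, 0.86 and 0.64, and the interaction turned to 0.99, 0.87, 0.63 and 0.51 with 1.03% of genes called. Leaving out PFF mouse 2 at 11% O2 alone, in 47 mice, restored both sets of calls, with 1.05% of genes called for the interaction. Batch 1 alone gave 0.51, 0.65 and 0.68 for *Hbb-bs*, *Hbb-bt* and *Alas2* in monomer mice, 0.065, 0.084, 0.0097 and 0.33 for PFF against monomer at 11% O2, 0.16 for the interaction of *Alas2*, and 1.98%, 0.0406%, 0.0609% and 0.0745% of genes called (11% O2 in monomer and PFF mice, PFF at 21% O2, interaction), from fewer mice. *Alas2* turned to −0.057 for PFF at 21% O2 in batch 2 and to −0.12 for 11% O2 in PFF mice in batch 3, where 0.0472% and 0.0136% of genes were called for 11% O2 in PFF mice. Without the 3 highest mice, *Alas2* in monomer mice was 0.94, not called, and PFF against monomer at 11% O2 was 0.0080, 0.080 and 0.055 for the globin features. Where the main settings called 7.22% of genes for 11% O2 in monomer mice, 3.71% for PFF at 21% O2, 2.14% for the interaction and 0% for PFF at 11% O2, the adjusted p alone called 13.2% and 7.61% for the first and second, uncorrected counts with a batch term 4.56% for the first and 1.37% for the interaction, and DESeq2 0.00674% (1 gene) for PFF at 11% O2. Beyond the sets of mice, the cause of these shifts was not tested.

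Leaving out each of the 42 mice in turn gave 1.04 to 1.41, 0.94 to 1.28, 1.20 to 1.67 and 1.31 to 1.81 for 11% O2 in monomer mice, called in 42 of 42. In PFF mice the ranges were 0.54 to 0.94, 0.54 to 0.88, 0.53 to 0.96 and 0.57 to 1.10, called in 0 of 42. PFF against monomer gave 0.14 to 0.38, 0.12 to 0.33, 0.29 to 0.53 and 0.11 to 0.43 at 21% O2, and −0.49 to 0.042, −0.41 to 0.058, −0.59 to 0.049 and −0.78 to −0.10 at 11% O2. The sign of the globin features turned there without monomer mouse 7 at 11% O2. The interaction gave −0.78 to −0.25, −0.65 to −0.18, −1.02 to −0.38 and −1.11 to −0.43.

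With the replicate number as a block, 11% O2 gave 1.29, 1.14, 1.42 and 1.63 in monomer and 0.67, 0.65, 0.68 and 0.70 in PFF mice, and no call of a member changed. The numbers did not pair mice: deviations of same-numbered mice correlated at −0.40 to 0.56 over 54 pairs, with a median of 0.003, against −0.54 to 0.58 over 605 other pairs. With 14 to 365 counts, *Alas2* is the member that depth limits most.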
